A study of Mus musculus with 12 samples.

Results

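Promoters of chromatin regulator and histone genes were followed here in fetal and adult haematopoietic stem cells (HSCs) of the mouse. They were chosen by gene name. The pattern takes symbols that begin with the family names Kdm, Hdac, Sirt, Dnmt, Tet, Ezh, Eed, Suz12, Cbx, Bmi1, Smarc, Chd, Brd, Brpf, Setd, Ehmt, Mll, Kat, Prmt, Phf, Ash and Hist. It found 76 captured promoter fragments of 58 genes among the 3781 promoter entries of 3374 genes in the deposited table, and 1793 of its 89545 contacts. A name does not guarantee a role in the nucleus: Mllt4 encodes afadin, a protein of cell junctions, Setd3 methylates actin, Hdac6 deacetylates tubulin in the cytoplasm, Sirt3 is mitochondrial and Phf5a belongs to a splicing complex. These genes were kept, because the choice was by name alone. All 58 symbols matched the RefSeq gene list, 8 of them through an older synonym (Mll1 is now Kmt2a, Setd8 is Kmt5a and Hist1h2bg is H2bc8).

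DNA in the nucleus is wound around histones, and chromatin regulators decide how tightly. Writers add acetyl or methyl groups to histones or to DNA, erasers such as histone deacetylases and lysine demethylases take them off, readers such as Cbx, Brd and Phf proteins bind the marked sites, and the Smarc and Chd families slide or evict nucleosomes using ATP. In blood, Polycomb proteins, DNA methylation enzymes and Mll proteins are known regulators of stem cell self-renewal.

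Capture-C ligates the ends of cross-linked chromatin cut with the enzyme DpnII, whose site is GATC, and pulls out those that include a chosen promoter, so that a sequenced pair reports a contact between a promoter and a distal place. Fetal HSCs came from the liver at embryonic day 14.5 and adult HSCs from the bone marrow of mice aged 6 to 8 weeks, both of strain B6129SF1 and both sorted as Lin-Sca1+cKit+CD135- cells, with no further genotype or treatment. The gate takes multipotent progenitors along with stem cells, and each library needed a large pool of sorted cells. Each population had 4 libraries, 2 in each of 2 capture batches, while 4 libraries of the HPC7 cell line were not analysed here. The table gives values pooled per population and batch, so no value below has a replicate error, no difference could be tested, and intervals are 95% intervals for counting error alone (exact Clopper-Pearson for shares). Intervals treat contacts as independent, although neighbouring bins are often called together. A bin called in both populations counts on both sides in fetal shares of calls and in differences of distance or marks.

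A contact links the captured fragment to a 2 kb bin elsewhere, and it is called in a population when its deposited score is above 0. The first batch held 61 of the promoters (44 genes, 1523 contacts) and the second 15 (14 genes, 270 contacts). No fragment of a chromatin gene was captured in both, and the batches are given apart. All promoters of the second batch carry the authors' mark of differential expression, against 22 of the 61 in the first (36.1%, 24.2 to 49.4; 35.5% of all promoters there). Over the listed contacts of the 61 promoters 19540 fetal and 17535 adult counts were held, and 9357 and 8448 over those of the 15. Within chromosomes the fetal to adult ratio of these counts was 1.11 in both batches, against 1.17 and 1.11 for all promoters. Deposited FPKM values (fragments per kilobase of gene, scaled to sequencing depth) gave the expression of marker genes among the captured promoters. The 8 captured stem and progenitor markers of a list of 10 summed to 193 FPKM in fetal and 306 in adult cells. The 5 erythroid markers summed to 63.2 and 17.0, the 6 captured myeloid and macrophage markers of 7 to 69.2 and 3.65, and the 3 endothelial markers to 8.94 and 8.49. Flt3, which encodes the sorted-out antigen CD135, stood at 6.20 and 3.81. No listed B cell, T cell or liver marker was among the promoters. The summed erythroid and myeloid markers were thus higher in the fetal population, and their part in the results below was not tested.

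The contact between a pair of histone genes, and the reciprocal contact between a pair of Polycomb genes, are among the results below, and the bases before the starts of these 4 genes show how differently such promoters are built. The sequences are from RefSeq (GRCm38.p6), run 5′ to 3′ over the 250 bases before the annotated start, and carry in capitals each match on either strand to the TATA box letters TATAAA, the CCAAT box letters CCAAT or the octamer ATGCAAAT. The matches did not overlap. The contacts themselves are in mm9 coordinates, the build in the submitters' processing notes, and were not placed on these windows.
Hist1h2bg (H2bc8), chr13:23571150-23571399, plus strand: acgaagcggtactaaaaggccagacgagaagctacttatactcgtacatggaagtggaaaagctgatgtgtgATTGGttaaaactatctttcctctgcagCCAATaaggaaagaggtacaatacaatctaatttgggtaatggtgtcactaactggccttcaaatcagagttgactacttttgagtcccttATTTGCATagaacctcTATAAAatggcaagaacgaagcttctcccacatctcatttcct
Hist1h2ac (H2ac6), chr13:23683960-23684209, minus strand: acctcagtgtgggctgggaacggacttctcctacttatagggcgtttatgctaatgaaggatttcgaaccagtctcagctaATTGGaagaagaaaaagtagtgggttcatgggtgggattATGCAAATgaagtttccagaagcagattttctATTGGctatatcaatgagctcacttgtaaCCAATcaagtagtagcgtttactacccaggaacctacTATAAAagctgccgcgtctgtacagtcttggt
Cbx6, chr15:79834334-79834583, minus strand: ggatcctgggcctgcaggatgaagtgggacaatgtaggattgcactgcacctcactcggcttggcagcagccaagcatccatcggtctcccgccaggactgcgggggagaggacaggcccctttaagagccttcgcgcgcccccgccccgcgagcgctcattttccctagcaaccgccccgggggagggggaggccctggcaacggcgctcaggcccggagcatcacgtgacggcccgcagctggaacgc
Cbx7, chr15:79932647-79932896, minus strand: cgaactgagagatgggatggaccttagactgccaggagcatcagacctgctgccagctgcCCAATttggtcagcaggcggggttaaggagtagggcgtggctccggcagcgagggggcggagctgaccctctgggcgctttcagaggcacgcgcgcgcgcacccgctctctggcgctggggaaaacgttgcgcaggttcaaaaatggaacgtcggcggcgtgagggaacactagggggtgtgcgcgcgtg

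Both histone windows held a TATA box, 43 bases before the start in Hist1h2bg and 32 in Hist1h2ac, each preceded by an octamer and by CCAAT boxes (2 and 3). The Cbx6 window held none of these letters and the Cbx7 window a single CCAAT box. CG dinucleotides numbered 5 and 6 in the histone windows against 20 in Cbx6 and 23 in Cbx7, with GC shares of 40.4%, 43.2%, 68.0% and 64.8%. Windows were on hand for 48 of the 58 genes (64 windows), and most resembled those of Cbx6 and Cbx7: the median held 21.5 CG dinucleotides, against 6 over 32851 windows of all genes. TATAAA was found in 4 of the 64 (6.25%; 12.4% of all windows), CCAAT in 25 (39.1%; 33.8%) and the octamer in 3 (4.69%; 1.60%). Of these 3 octamer windows 2 are printed above, and the other belonged to Chd6. A match describes the letters and not a bound site.

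Chromatin gene promoters had about as many contacts in fetal as in adult cells. In the first batch 986 fetal and 934 adult calls were listed, and in the second 185 and 192. The median promoter had 8 calls in each population of the first batch and 9 fetal and 10 adult calls in the second, where the medians over all promoters were 11 and 10, and 10 and 9. More fetal calls stood at 24 of 61 promoters in the first batch (39.3%, 27.1 to 52.7) and more adult calls at 31 (50.8%, 37.7 to 63.9), with 6 equal. Over all promoters of that batch fetal excess was seen at 48.1% and adult excess at 42.1%. In the second batch 4 of 15 had more fetal calls (26.7%, 7.79 to 55.1; all 50.1%), 7 more adult calls (46.7%, 21.3 to 73.4; all 38.1%) and 4 equal numbers. The lean toward adult calls is within the counting error of the background shares in both batches, and it depends on how neighbouring bins are counted. With bins up to 5 kb apart merged into 1 contact, the share of fetal excess among unequal promoters went to 51.9% from 43.6% in the first batch, and to 66.7% from 36.4% in the other. The log2 ratio of fetal to adult calls, after adding 1 to each, had a median of -0.04 (-0.29 to 0.17) among the 61 promoters and 0.00 (-0.42 to 0.14) among the 15, against 0.00 and 0.03 over all promoters.

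Large differences were few. Among promoters with at least 10 calls in total, 1 of 39 in the first batch had 2 times as many fetal calls or more, which was Mll1 (all promoters 6.47%), and none of 39 had 2 times as many adult calls (all 4.2%; the count allows up to 9.03%). In the second batch no promoter of 9 passed either limit (all 5.28% and 3.25%; upper limit 33.6%). The plot of calls by family shows each promoter.

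**Figure D1:**
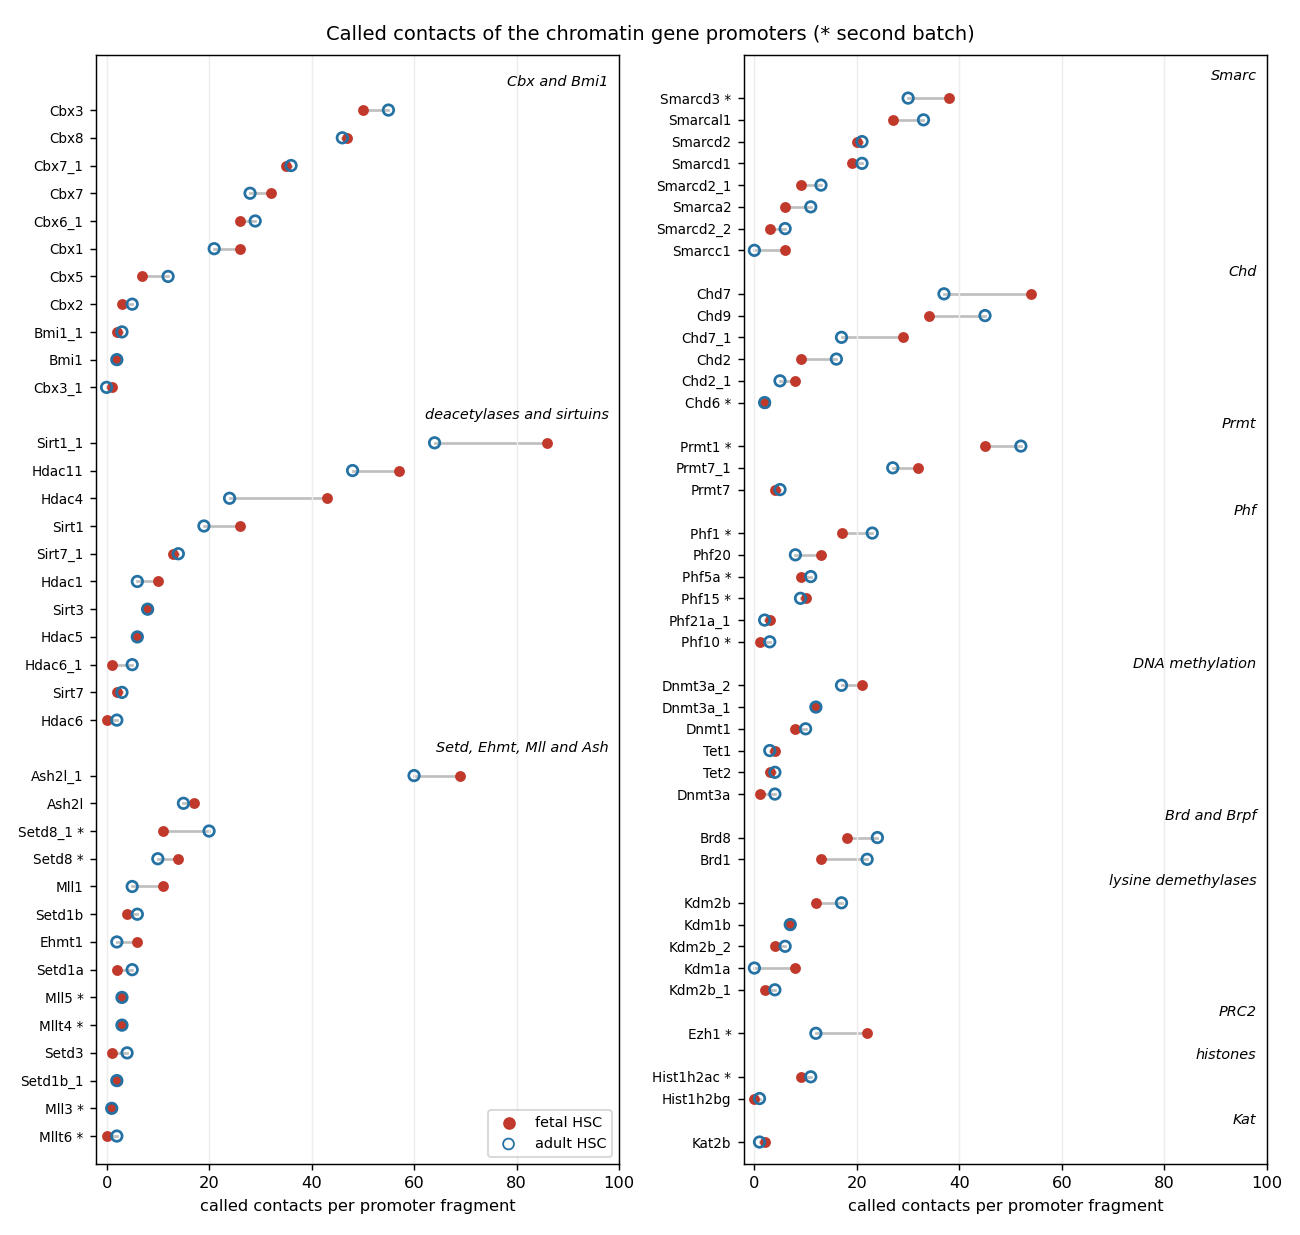
Called contacts per promoter fragment (horizontal axis, number of contacts) of the 76 chromatin gene promoters, grouped by family; filled red points are fetal and open blue points adult HSCs, a grey line joins them, and stars mark the second batch. Most pairs lie close together, and the longest lines on the fetal side belong to Sirt1_1 (86 and 64 calls), Hdac4 (43 and 24) and Chd7 (54 and 37).

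Among the core histone genes, 2 were captured, both in the Hist1 cluster on chromosome 13. Hist1h2ac, an H2A gene, had 9 fetal and 11 adult calls, 6 of them shared, and FPKM of 0.203 and 1.04. Its contacts lay 46.2 to 102 kb away, and the bins with the most counts, 54.2 and 63.8 kb away, carried the active promoter mark and held 35 fetal and 55 adult counts, and 41 and 51. Hist1h2bg, an H2B gene with 0.593 FPKM in fetal and 11.2 in adult cells, had a single contact. It lay 115 kb away at the bin that holds the Hist1h2ac fragment, with 2 fetal and 10 adult counts, and was called in adult cells (score 1.65, near the smallest score of 1.3). Replication-dependent histone transcripts lack poly(A) tails, so these FPKM values depend on an RNA selection step that is not given in the sources used here.

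Polycomb group genes keep developmental genes silent. Cbx proteins read methylated histone tails, and Cbx2, Cbx6, Cbx7 and Cbx8 do so in Polycomb complexes. Cbx1, Cbx3 and Cbx5 are heterochromatin proteins outside the Polycomb group, counted here with the others by name. Bmi1 is a core subunit of the PRC1 complex of the Polycomb group and is needed for HSC self-renewal. The 11 Cbx and Bmi1 promoters had 231 fetal and 237 adult calls and shared 122 of 346 contacts (35.3%, 30.2 to 40.5). Over all contacts of the first batch 25.7% were called in both populations, and over those of chromatin genes 397 of 1523 (26.1%, 23.9 to 28.3). Cbx8 had 47 fetal and 46 adult calls, Cbx1 26 and 21, Cbx5 7 and 12, and Cbx2 3 and 5. Bmi1 was nearly bare of contacts, with 2 fetal and 2 adult calls at the fragment named Bmi1 and 2 and 3 at Bmi1_1, although it was expressed (10.0 and 14.6 FPKM, and 10.8 and 16.8). Within the chromosome the single shared contact ran from Bmi1_1 to an active enhancer bin 70.3 kb away, with 15 fetal and 18 adult counts. The other shared contact joined the fragment named Bmi1 to another chromosome, with 9 and 11 counts.

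Cbx6 and Cbx7 contacted each other. From the Cbx6_1 fragment (chr15:79664581-79665010, mm9) the bin of Cbx7_1, 98.2 kb away, had 41 fetal and 32 adult counts and was called in both, and the bin of the fragment named Cbx7 had 23 and 29 and was also called in both. From Cbx7_1 (chr15:79762625-79763345) the Cbx6_1 bin had 38 fetal and 34 adult counts and was called in both. From the Cbx7 fragment (chr15:79764100-79764390) it had 21 and 26 and was called in adult cells alone, so that 3 of the 4 directions were called in both populations. Cbx6_1 and both Cbx7 fragments also met the promoter of Rpl3, a ribosomal protein gene, in both populations; for Cbx7_1 this bin had 38 fetal and 45 adult counts. Cbx7 expression was lower in fetal cells (3.09 and 8.13 FPKM at one fragment, 3.56 and 9.08 at the other), with 32 fetal and 28 adult calls and 35 and 36 calls. The active enhancer mark stood at 12 fetal and 6 adult calls of Cbx7, 15 and 10 of Cbx7_1, 7 and 6 of Cbx6_1, and 12 and 6 of Cbx8. These 4 promoters held 46 of the 132 fetal and 28 of the 118 adult calls at active enhancers among all 61 promoters of the batch. They are not 4 separate cases: both Cbx7 fragments, centred 1.26 kb apart, were called at the same bin 20 times in fetal and 17 times in adult cells. An enhancer bin among these counts once for each fragment.

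Cbx3, which encodes heterochromatin protein 1 gamma, reached the Hoxa cluster (this pattern was picked after its values were seen). Hoxa genes encode homeobox factors, of which Hoxa9 is a known driver of HSC self-renewal. From the Cbx3 fragment (chr6:51418708-51420354) 14 listed bins ran across the captured Hoxa promoters, 721 to 765 kb away. Of these, 8 were called in both populations, 1 was fetal only and 5 were adult only. Counts summed to 140 fetal and 187 adult, an adult share of 57.2% (51.6 to 62.6), compared with 48.8% (46.0 to 51.7) for 629 fetal and 600 adult counts over the 62 other Cbx3 contacts within the chromosome. A bin is listed for its call, so the 5 adult-only bins against 1 fetal-only bin raise the adult share of the Hoxa set. The intervals do not allow for this or for the choice of the bins, and the difference was not tested. The Hoxa9_2 fragment spans a pair of bins, both called in both populations: the first had 11 fetal and 31 adult counts and scores of 3.74 and 24.17, the other 10 and 13 counts and scores of 2.70 and 4.90. The bin of the Hoxa9 fragment, 761 kb away, had 12 and 7 counts and was called in fetal cells alone. FPKM at Hoxa9_2 was 19.9 in fetal and 26.0 in adult cells, at Hoxa9 17.8 and 24.5, and at Cbx3 49.1 and 55.6. The neighbouring fragment Cbx3_1, centred 1.03 kb away, had 1 fetal and no adult call and did not reach Hoxa. Captured from the other end, Hoxa3_1 met both bins that the Cbx3 fragment spans, with 14 fetal and 10 adult counts and with 7 and 11, and Hoxa7_1 met the nearer of them with 10 and 12. These 3 contacts were called in adult cells alone at scores of 1.48, 1.48 and 2.05, although the first of them held more fetal counts. The nearer bin also holds the Cbx3_1 fragment, so contacts with it cannot be assigned to Cbx3 rather than Cbx3_1. No other captured Hoxa fragment, Hoxa9 and Hoxa9_2 included, had a listed contact with these bins.

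**Figure D2:**
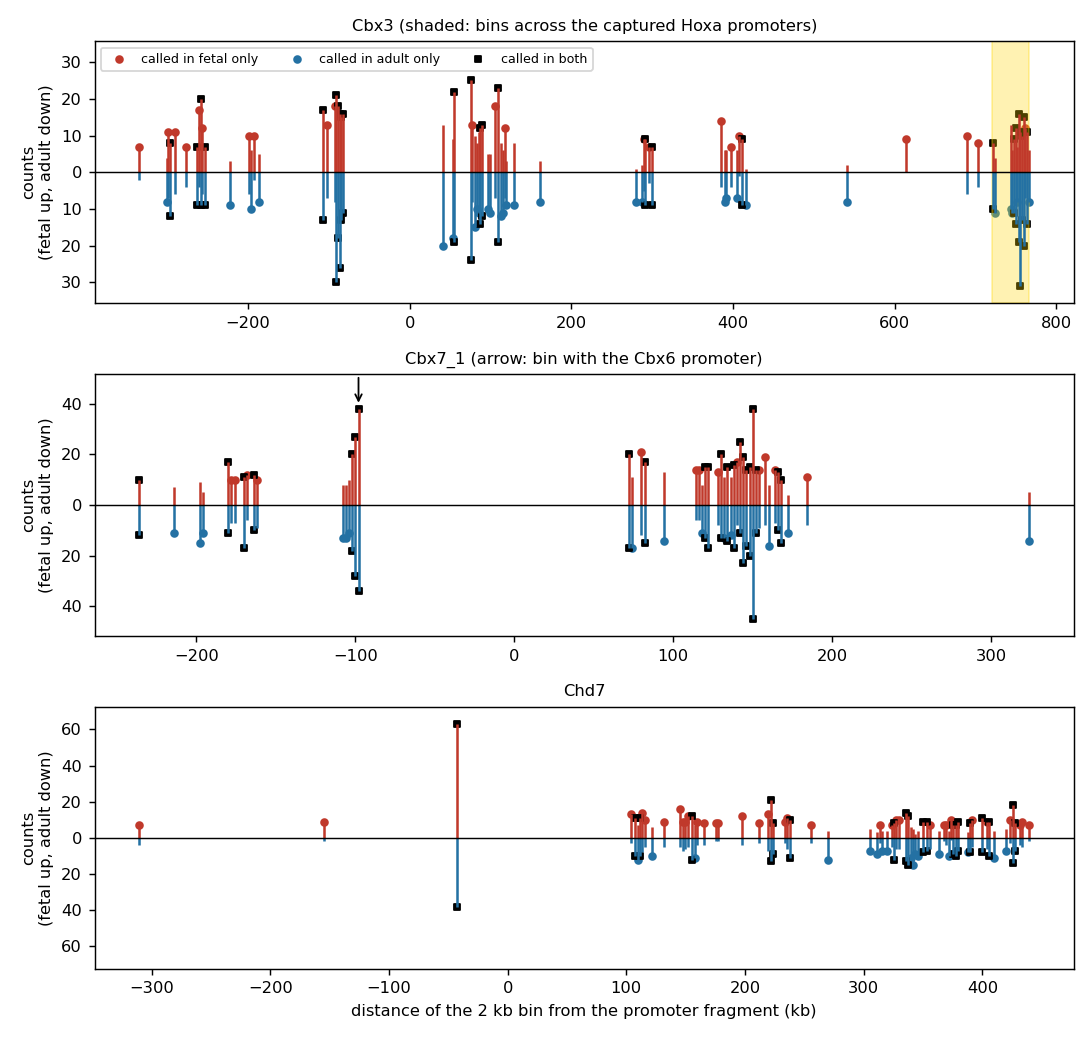
Counts of the listed bins (vertical axis, fetal upward in red and adult downward in blue) against the distance of the 2 kb bin from the promoter fragment (horizontal axis, kb) for Cbx3, Cbx7_1 and Chd7, with markers for the population of the call. The shaded Hoxa bins of Cbx3 hold 140 fetal and 187 adult counts, the arrow marks the Cbx6_1 bin of Cbx7_1 (38 and 34), and the tallest line of Chd7 is an active enhancer bin 42.4 kb away (63 and 38).

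Ezh1 was the captured member of the PRC2 core, in which it is the alternative to Ezh2 as the enzyme that methylates histone H3 at lysine 27. It had 22 fetal and 12 adult calls (fetal share of calls 64.7%, 46.5 to 80.3), a log2 ratio of 0.82, although its FPKM was 1.96 in fetal and 4.11 in adult cells. Its strongest contacts were promoters of its neighbours: Psme3, 89.8 kb away, with 92 fetal and 44 adult counts, Ccdc56 with 91 and 53, Tubg1 with 49 and 29, and Becn1 with 47 and 32. All 4 were called in both populations. The opposite pattern was seen at an active promoter bin 142 kb away, with 9 fetal and 39 adult counts and a call in adult cells alone (score 8.54).

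Promoters with the names Setd, Ehmt, Mll and Ash divided about evenly. Most of these genes encode histone methyltransferases or their partners, but Mllt4 and Setd3 do not. In the first batch 4 had fetal excess, 3 adult excess and 1 equal calls, and in the second 1, 2 and 3. Over all promoters fetal and adult excess stood at 48.1% and 42.1% in the first batch and at 50.1% and 38.1% in the second. Mll1, the H3 lysine 4 methyltransferase disrupted in leukaemia, had 11 fetal and 5 adult calls and 1 of its 15 contacts in both; its fetal calls lay at a median of 265 kb and its adult calls at 40.6 kb. Counts over these contacts were 115 fetal and 130 adult, so the excess of calls was not an excess of counts. Mll3 had 1 and 1 calls and Mll5 3 and 3. Ash2l, a shared subunit of the lysine 4 methyltransferase complexes, had 69 fetal and 60 adult calls at Ash2l_1 and 17 and 15 at a fragment centred 0.79 kb away. Of the calls of the weaker fragment 14 of 17 fetal and 14 of 15 adult bins were also called from the stronger. Setd8, which places a single methyl group on H4 lysine 20, had 14 fetal and 10 adult calls at the fragment of that name and 11 and 20 at Setd8_1, centred 6.17 kb away. Both fragments met the bin of the Rilpl1 promoter, with 169 fetal and 125 adult counts (scores 75.28 and 49.89) and 92 and 70 counts. Setd8_1 showed the largest adult excess among promoters with at least 10 calls (log2 -0.81) at 32.9 fetal and 18.8 adult FPKM. Ehmt1, an H3 lysine 9 methyltransferase, had 6 and 2 calls, and Setd1b, of the lysine 4 family, 4 and 6. The contact between Setd1b_1 and Kdm2b_2 was called in fetal cells alone from each end, with 19 fetal and 5 adult counts from Kdm2b_2 and 23 and 2 from Setd1b_1, 153 kb apart.

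Lysine demethylases erase these marks. Their 5 promoters had 33 fetal and 34 adult calls, and 6 of 61 contacts were called in both (9.84%, 3.70 to 20.2; all 25.7%). Kdm1a, the H3 lysine 4 demethylase LSD1, needed for blood cell formation, had 8 fetal and 0 adult calls (fetal share 100%, 63.1 to 100). The bins lay 105 to 349 kb away, with 7 to 12 fetal and 0 to 6 adult counts each and fetal scores of 1.39 to 3.89, and none of the 8 carried a promoter, active enhancer or open chromatin mark in fetal cells. Counts came to 75 fetal and 20 adult; since a bin is listed for its call, such sums favour the calling population. Kdm1a FPKM was 19.3 in fetal and 16.7 in adult cells. Kdm2b, a lysine 36 demethylase that recruits Polycomb to CpG islands, had 12 fetal and 17 adult calls at its main fragment and 21.2 and 13.9 FPKM, and Kdm1b had 7 and 7.

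Deacetylases and sirtuins remove acetyl groups. Their 11 promoters summed to 252 fetal and 199 adult calls, and 5 had more fetal, 4 more adult and 2 equal calls. Sirt1, an NAD-dependent deacetylase tied to HSC ageing, had the most calls of all chromatin genes: 86 fetal and 64 adult at Sirt1_1 (fetal share 57.3%, 49.0 to 65.4) and 26 and 19 at the fragment named Sirt1. These fragments, 42.3 kb apart, met each other from both ends in both populations, with 54 fetal and 42 adult counts and 52 and 46. Sirt1 FPKM was 2.69 and 3.56. Hdac4, a signal-responsive class IIa deacetylase, had 43 fetal and 24 adult calls (fetal share 64.2%, 51.5 to 75.5), 6 of 61 contacts in both, and 10 calls at open chromatin in each population. Its FPKM was level at 1.47 and 1.48. Hdac11 had 57 and 48 calls with 1.20 fetal and 6.32 adult FPKM, and Hdac1, the catalytic core of several co-repressors, 10 and 6 with 36.3 and 24.9 FPKM. Hdac6_1 went the other way with 1 and 5 calls.

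Enzymes of DNA methylation shared 9 of 90 contacts between the populations (10.0%, 4.68 to 18.1; 25.7% of all contacts of the batch) and had 49 fetal and 50 adult calls. Dnmt3a, the de novo methyltransferase that limits HSC self-renewal, had 21 fetal and 17 adult calls at Dnmt3a_2, 12 and 12 at Dnmt3a_1 and 1 and 4 at the fragment named Dnmt3a. Its FPKM was higher in fetal cells at each (29.4 and 11.2, 11.8 and 4.52, 23.0 and 11.1). The 78.4 kb contact from Dnmt3a_2 to the upstream Dnmt3a fragment was called in adult cells alone at 13 fetal and 15 adult counts, and the 87.9 kb contact from Dnmt3a_1 to it in both, at 24 and 19. Dnmt1, the maintenance enzyme, had 8 fetal and 10 adult calls with 42.8 and 32.0 FPKM. The 5-methylcytosine oxidases Tet1 and Tet2 had 4 and 3, and 3 and 4.

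Genes named Smarc encode subunits of the SWI/SNF nucleosome remodellers, except Smarcal1 (27 fetal and 33 adult calls), which was kept by its name. Smarc promoters of the first batch had fetal excess at 1 and adult excess at 6 (90 and 105 calls). FPKM was higher in fetal cells at 6 of these 7. Over all promoters of that batch fetal excess in calls stood at 48.1% and adult excess at 42.1%. The 7 fragments belong to 5 genes: Smarcd2 has 3 of them, with 20 fetal and 21 adult calls, 9 and 13, and 3 and 6, and higher fetal FPKM at each. Smarcc1, a core scaffold subunit, was the exception in calls with 6 fetal and 0 adult. Its bins had 5 to 9 fetal and 1 to 4 adult counts. Smarca2, an ATPase subunit, had 6 fetal and 11 adult calls with 6.79 and 19.8 FPKM. Its farthest contact, 682 kb away at the promoter of D19Bwg1357e, was called in both with 31 fetal and 32 adult counts. In the second batch Smarcd3 had 38 and 30 calls, 25 of 43 contacts in both, and FPKM of 0.469 and 1.44.

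Among the Chd remodellers, Chd7, mutated in CHARGE syndrome, leaned fetal at both of its fragments: 54 fetal and 37 adult calls (fetal share 59.3%, 48.5 to 69.5) and, 61.1 kb away at Chd7_1, 29 and 17 (63.0%, 47.5 to 76.8). Both intervals include an even split, but they count each bin called in both populations on both sides. Bins called in a single population were 34 fetal only and 17 adult only at the fragment named Chd7, and 22 and 10 at Chd7_1. Their split was not tested. Nor are the fragments separate cases: 14 of the 29 fetal and 5 of the 17 adult calls of Chd7_1 were at bins also called from the fragment named Chd7. FPKM was low and higher in fetal cells (1.38 and 0.382; 1.32 and 0.325). Of the calls at the fragment named Chd7, 14 fetal and 6 adult were at active enhancer bins, and open chromatin stood at 32 and 18. The nearest contact, an enhancer bin active in both populations, had 63 fetal and 38 adult counts. Chd9 leaned adult with 34 fetal and 45 adult calls (1.93 and 4.51 FPKM). Chd2 was split: its main fragment had 9 fetal and 16 adult calls but 201 and 195 counts (9.16 and 15.7 FPKM), and Chd2_1, centred 72.3 kb away, had 8 and 5 calls.

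The acetylation readers Brd1 and Brd8 had more adult calls, 13 fetal and 22 adult, and 18 and 24; Brd1 shared 2 of 33 contacts. Kat2b, an acetyltransferase, had 2 fetal and 1 adult call. Prmt1, the main asymmetric arginine methyltransferase, was the most contacted chromatin gene of the second batch with 45 fetal and 52 adult calls, 34 of 63 contacts in both, and FPKM of 98.7 and 53.0. Promoters at its distal ends included those of Med25, Prrg2 and Nup62. Prmt7 had 32 and 27 calls at Prmt7_1 and 4 and 5 at a fragment centred 1.80 kb away. Among the Phf genes, Phf20 had 13 fetal and 8 adult calls, Phf5a 9 and 11, Phf15 (Jade2) 10 and 9, and Phf1, a Polycomb-like partner of PRC2, 17 and 23 with 1.83 and 5.36 FPKM.

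A few single contacts exceeded all others in score. Kat2b met a bin on chromosome 5 with 747 fetal and 768 adult counts and infinite scores, Cbx3 a bin on chromosome 11 with 153 and 54, and Hdac1 a bin on chromosome 17 with 116 and 2 (called in fetal cells alone, score 202.46). None of these 3 bins carried an active promoter, active enhancer or open chromatin mark in either population. Phf1 met a bin 6943 kb away, in the same chromosome, with 193 and 171 counts. Contacts between chromosomes numbered 8, from 7 chromatin gene promoters; dropping them, with those within 20 kb, changed the share of promoters with fetal excess from 43.6% to 41.8% in the first batch. Without its contact on chromosome 17, Hdac1 keeps 9 fetal and 6 adult calls.

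Fetal contacts lay farther from chromatin gene promoters than adult ones, as they did at all promoters. Fetal calls of the first batch lay at a median of 168 kb and adult calls at 146 kb, 21.7 kb apart (10.3 to 33.7). The medians of the second were 88.8 and 71.1 kb, 17.6 kb apart (9.40 to 27.0). All promoters gave differences of 24.3 and 24.1 kb, within these intervals. Of promoters with at least 5 calls in each population, 28 of 37 (75.7%, 58.8 to 88.2) had the longer median in fetal cells in the first batch and 9 of 9 in the second (all promoters 67.1% and 84.6%). Between 20 and 60 kb, 20 contacts were fetal only and 46 adult only among the 61 promoters, and 5 and 52 among the 15. Over all promoters these numbers were 701 and 1597, and 969 and 5241. Between 150 and 500 kb chromatin gene promoters had 382 and 255, and 14 and 3, against 12277 and 8506, and 4734 and 1986, over all promoters. At the stricter score of 3.0 the difference of the second batch was 8.12 kb (-3.98 to 19.4), and with bins merged that of the first was 13.5 kb (-7.03 to 36.6).

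**Figure D3:**
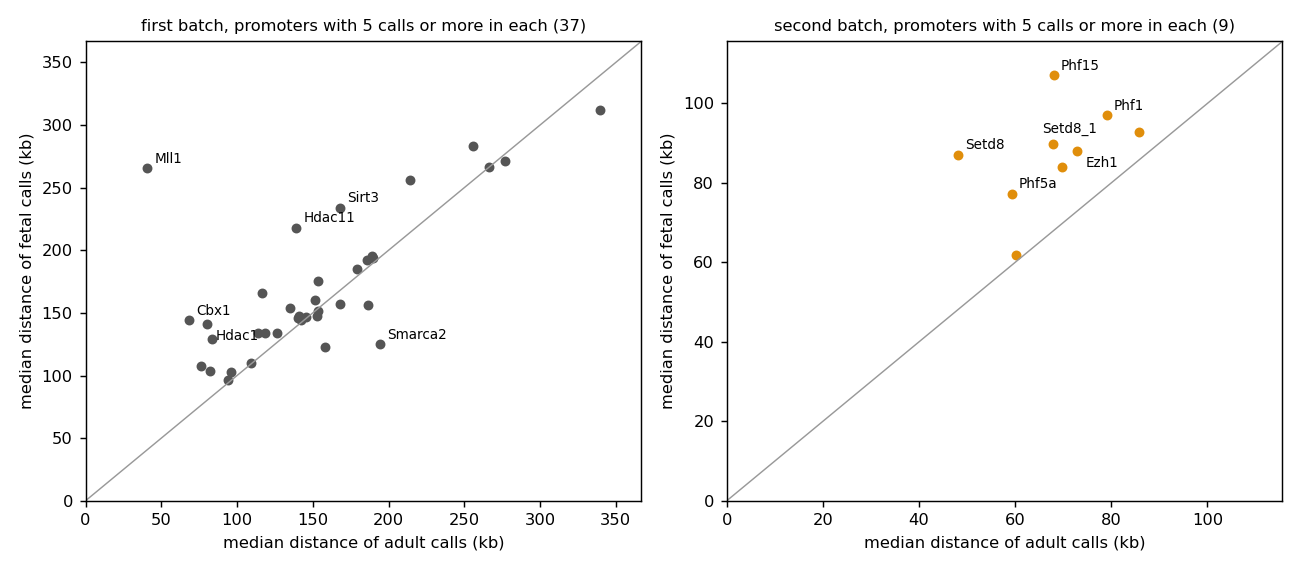
Median distance of fetal calls (vertical axis, kb) against that of adult calls (horizontal axis, kb) for each chromatin gene promoter with at least 5 calls in each population, by batch; the line marks equality. Points above the line have the longer median in fetal cells, 28 of 37 in the first batch and 9 of 9 in the second, with Mll1 farthest from it (265 and 40.6 kb).

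Calls of the second batch lay more often at active promoter bins than the background, with most of these calls at a few promoters. Active promoter bins held 35.7% of the fetal (28.8 to 43.0) and 34.9% of the adult calls (28.2 to 42.1), against 18.2% and 20.3% over all promoters of that batch. Prmt1 held 23 of the 66 fetal and 27 of the 67 adult calls of this kind, and without it the shares were 30.7% (23.2 to 39.1) and 28.6% (21.3 to 36.8). Ezh1 had 9 and 6, Hist1h2ac 6 and 5, and Phf5a 6 and 6. In the first batch the shares were 14.5% (12.4 to 16.9) and 16.1% (13.8 to 18.6), against 15.6% and 18.3%. For the second batch open chromatin bins held 71.9% of the fetal (64.8 to 78.2) and 64.6% of the adult calls (57.4 to 71.3) (all 56.7% and 57.2%), and 50.7% and 51.1% in the first (all 53.0% and 54.6%). Active enhancer bins held 13.4% of fetal and 12.6% of adult calls from the 61 promoters, which is 0.754 percentage points apart (-2.27 to 3.76). From the 15 they held 8.11% and 12.5%, or -4.39 points (-10.7 to 1.86). Other captured promoters lay in 129 bins of chromatin gene contacts (7.19%; 6.22% of all contacts), of which 62 were shared, 27 fetal only and 40 adult only.

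Most contacts called in a single population had scores near the threshold, as over all promoters. In the first batch 68.9% of fetal-only and 72.4% of adult-only contacts lay within 1 unit of the smallest score (all contacts 71.4% and 69.8%), compared with 43.3% and 35.5% for the fetal and adult scores of shared contacts. Some were strong, among them the Hdac1 contact on chromosome 17 and adult-only contacts of Smarcal1 (score 9.33, 5 fetal and 17 adult counts) and Sirt1 (9.19, 7 and 16). In the first batch the median fetal-only contact held 10 fetal and 5 adult counts, the median adult-only contact 6 and 10. The medians were 28 and 16, and 23 and 29, in the second batch, where 107 of 270 contacts (39.6%, 33.8 to 45.7) were called in both (all contacts 37.1%). When a call within 20 kb was accepted as the same contact, the shared part was 81.0% in the first batch and 85.9% in the second. A wider tolerance can only raise this share, most easily where a promoter has many called bins. It was not computed over all promoters, so it does not show that single-population contacts are really shared.

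Calls and expression pointed the same way at a share of chromatin gene promoters whose interval includes the background. Among promoters with unequal calls, 25 of 55 in the first batch had more calls where FPKM was higher (45.5%, 32.0 to 59.4), and 4 of 11 in the second (36.4%, 10.9 to 69.2), against 51.3% and 52.5% over all promoters. The 55 comprised 11 promoters with fetal excess in both measures, 14 with adult excess in both, 13 with fetal calls and adult expression and 17 with the reverse. Chd7 and Dnmt3a_2 were fetal in both, and Smarca2 and Chd2 adult in both. Ezh1 and Hdac11 had fetal calls with adult expression, and Setd8_1 and Prmt1 the reverse.

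**Figure D4:**
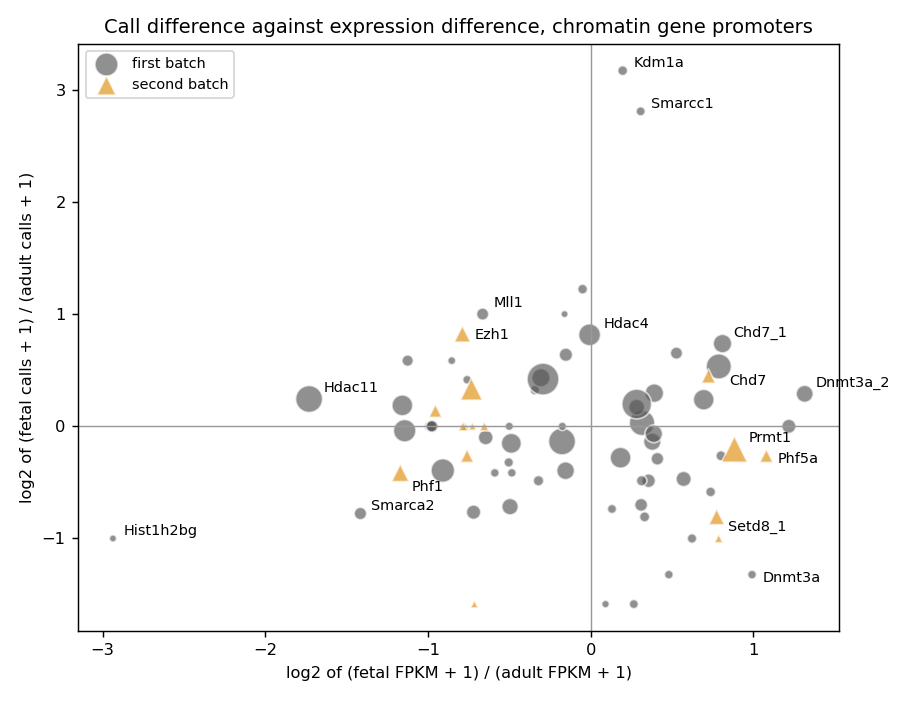
Log2 ratio of fetal to adult calls (vertical axis, 1 added to each) against the log2 ratio of fetal to adult FPKM (horizontal axis, 1 added to each) for the 76 promoters; circles are the first and triangles the second batch, and area grows with the number of calls. Points fill all 4 quadrants, with Kdm1a (8 and 0 calls) and Smarcc1 (6 and 0) at the top.

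Other chromatin genes outside the name pattern were counted in the same way. From a list of 94, 34 genes with 49 promoters were captured. In the first batch 20 of their promoters had more fetal, 16 more adult and 5 equal calls, with 524 fetal and 495 adult calls and a median log2 ratio of 0.00 (range -1.58 to 1.58). In the second batch 5 of 8 had more fetal calls, 2 more adult and 1 equal, with 243 and 197 calls and a median of 0.45. These numbers are set beside those of the name pattern and were not tested against them. Of the 32 regulators with a known role in blood stem cells that were listed by name, 14 were captured and are described above.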

How the data were processed

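Per the labels' protocols, sorted cells were cross-linked, digested with DpnII, ligated and captured (SureSelect XT2). The submitters' processing notes name Trim Galore 0.41, Bowtie2 2.2.2 and the build mm9, without roles. The authors deposited, per contact and population, a score that behaves as a -log10 p-value (smallest above 0: 1.3 and 2.0 in the 2 batches) and a whole-number count, not normalized. FPKM values per promoter and other columns, 0 or 1 marks of the distal bins, were also deposited by the authors; how they were made is not given in the sources used here. Whether counts sum or average the 2 libraries of a batch is likewise not given. Totals cover listed contacts and are not library depths.

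Members and lists were chosen with earlier results of these data known. Named genes are, of promoters with 10 calls or more, the 6 most fetal and the 6 most adult by log2 ratio, then the 6 with the most calls, the leader of each family, the histones, a list of blood stem cell regulators, and the strongest contacts. Other members are named where a family is described, chosen after their values were seen. Distance runs between the middles of fragment and bin. Tables were made with Python 3.11.15, pandas 2.3.3, SciPy 1.17.1 and statsmodels 0.14.6. Intervals of medians use order statistics, differences of medians combine both sides' intervals, and differences of shares use Newcombe's method. The counting was tested on simulated tables. No count test was run, since each group is 1 pooled value. Alternatives were a stricter score (2.3 and 3.0), distance above 20 kb, merged bins, fewer histone or alternative promoters, tolerances, filters and a pseudocount of 0.5.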

Additional observations from a re-analysis of the deposited data

How the results depend on the processing

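Of 88 alternative values of 12 results (6 per batch), 78 stayed within the 95% interval of the value reported, 10 left it and 0 reversed a called direction. Only the distance differences had intervals that set a direction between fetal and adult cells, so the 0 covers them alone. Other values changed side while staying within their wide intervals. Merging bins took the share of fetal excess among unequal promoters past an even split. It rose from 43.6% to 51.9% for the earlier capture and from 36.4% to 66.7% for the later one. The share of contacts called in both populations moved with its definition: to 36.1% with merged bins, 59.3% within 5 kb and 81.0% within 20 kb in the first batch, and in the second to 49.4%, 70.7% and 85.9%, and to 31.1% at the stricter score. These alternative shares were not computed over all promoters. In the second batch the median log2 ratio of calls was 0.15 with merged bins, and the distance difference 8.12 kb at the stricter score. The difference in marked bins was 4.72 percentage points with any enhancer or open chromatin mark. With the active enhancer mark it was -4.39 points, so the sign changed. At the stricter score the active enhancer difference of that batch was -9.26 points (-17.6 to -0.721), an interval below 0. The cause was not tested. Leaving out Prmt1 was added after the values were seen. No chromatin gene contact had 1000 counts or more, so that filter changed nothing. The deposited values are pooled over libraries, so no analysis could be paired by library. Pairing by bin was possible, but the fetal shares of calls and the differences of distance and marks did not use it. A median called contact of the first batch rests on 11 fetal or 12 adult counts, which limits what single promoters show.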
